A study of Saccharomyces cerevisiae S288C with 24 samples.

Results

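The loci described here are the small nuclear and nucleolar RNA genes of budding yeast, taken as every locus of the deposited expression table whose name begins with snR in any letter case and whose estimate was marked as valid. There were 76 such loci among 6905 valid loci. They comprised 44 box C/D and 28 box H/ACA snoRNAs by a fixed list, whose class was that of RefSeq for 75 of the 76 loci and was not given there for 1. The other 4 match the name but are not nucleolar: snR6, snR7-L, snR14 and snR19 are the U6, U5 (long form), U4 and U1 RNAs of the spliceosome. RefSeq lists 81 entries named SNR, of which 5 (snR7-S, snR10, snR17a, snR60 and snR73) were not analysed here. RNA came from wild-type yeast (WT) and from Sc12, a strain that lacks TRP5, the gene of tryptophan synthase. Both were grown in YPD for 24 h with or without 1.2% isobutanol (IB) and with or without 200 µg/ml tryptophan (Trp). The 8 groups were WT, WT+Trp, WT+IB, WT+Trp+IB, Sc12, Sc12+Trp, Sc12+IB and Sc12+Trp+IB, each with 3 libraries. Per the study's methods Sc12 came from a deletion collection, so it is 1 mutant strain, and YPD already holds tryptophan in its peptone and yeast extract. The methods name BY4741 as the yeast used and G418 for upkeep of the collection. LEU2, MET17 and URA3 had 0 fragments in all WT and all Sc12 libraries.

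Small nucleolar RNAs are short, stable, non-coding RNAs that work in the nucleolus as ribonucleoproteins. Box C/D RNAs pair with ribosomal RNA and place 2'-O-methyl groups on it through the methyltransferase Nop1, and box H/ACA RNAs direct the isomerization of uridine to pseudouridine by Cbf5. A few, such as U3, U14 (snR128) and snR30, are needed to cut the ribosomal precursor rather than to modify it. Most yeast snoRNAs are transcribed from their own promoters, some are cut from transcripts that carry several of them, and some are released from introns of protein-coding genes. Mature snoRNAs carry no poly(A) tail, while tailed forms are intermediates of their processing and decay.

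The 8 loci shown here are examples from the results below, and their RefSeq sequences in the R64 assembly (sacCer3) show features of both classes. Capitals mark TGATGA (box C) within the first 20 bases and CTGA (box D) within the last 20 bases of box C/D RNAs, and ACA at 3 bases from the 3' end of H/ACA RNAs. The first 3 had the largest log2 fold changes of the well-counted loci called higher in Sc12 (a mean of at least 10 fragments per library), and snR57 was the one member called lower there. snR82 and snR11 moved in opposite directions with isobutanol in WT, and snR39 and snR59 lie in introns of the paralogous genes RPL7A and RPL7B.
snR190, chrX:139761-139950, minus strand: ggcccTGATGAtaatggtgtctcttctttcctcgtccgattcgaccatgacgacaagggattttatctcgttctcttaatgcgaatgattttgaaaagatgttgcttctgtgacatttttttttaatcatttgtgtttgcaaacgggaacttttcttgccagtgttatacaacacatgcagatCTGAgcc
snR34, chrXII:899180-899382, plus strand: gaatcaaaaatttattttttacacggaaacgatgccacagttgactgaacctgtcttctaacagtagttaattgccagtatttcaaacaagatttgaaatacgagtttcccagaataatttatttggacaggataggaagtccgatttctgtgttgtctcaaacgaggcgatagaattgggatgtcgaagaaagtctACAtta
snR35, chrXV:759326-759529, minus strand: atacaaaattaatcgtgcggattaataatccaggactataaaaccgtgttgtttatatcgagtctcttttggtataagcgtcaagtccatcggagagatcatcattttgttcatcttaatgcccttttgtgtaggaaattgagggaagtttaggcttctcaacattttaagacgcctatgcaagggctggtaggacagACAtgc
snR57, chrXII:794937-795024, minus strand: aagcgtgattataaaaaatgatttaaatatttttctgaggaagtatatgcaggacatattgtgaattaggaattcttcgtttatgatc
snR82, chrVII:316788-317055, plus strand: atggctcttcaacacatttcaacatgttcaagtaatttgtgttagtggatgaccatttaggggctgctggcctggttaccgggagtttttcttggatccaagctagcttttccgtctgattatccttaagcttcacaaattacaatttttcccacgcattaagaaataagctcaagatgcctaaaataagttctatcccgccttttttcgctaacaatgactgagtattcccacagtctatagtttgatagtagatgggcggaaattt
snR11, chrXIII:652275-652532, plus strand: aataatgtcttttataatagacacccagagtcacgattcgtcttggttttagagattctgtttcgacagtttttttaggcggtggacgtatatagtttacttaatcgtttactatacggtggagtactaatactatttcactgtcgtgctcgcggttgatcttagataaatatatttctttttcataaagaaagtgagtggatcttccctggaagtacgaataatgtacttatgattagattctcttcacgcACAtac
snR39, chrVII:365163-365251, minus strand: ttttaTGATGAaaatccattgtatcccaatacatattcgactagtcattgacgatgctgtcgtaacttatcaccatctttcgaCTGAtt
snR59, chrXVI:173827-173904, plus strand: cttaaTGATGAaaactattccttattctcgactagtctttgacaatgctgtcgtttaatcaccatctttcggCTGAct

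TGATGA near the start together with CTGA near the end was found in 34 of 44 box C/D loci, in 0 of 28 box H/ACA loci and in 0.05947% of 248880 genome windows of 97 bases on both strands. ACA at the exact distance from the annotated 3' end was found in 13 of 28 H/ACA loci, in 2 of 44 C/D loci and in 1.72% of 118332 windows of 204 bases. snR57 and snR82 hold none of these exact matches at the annotated ends, which says only that the letters were not in those positions. snR39 and snR59 had 66 identical bases over 78 aligned positions, and RefSeq gives both the same large-subunit target, yet no 50-base stretch of either occurs elsewhere in the genome. Of all 76 loci, only snR17b (a U3 gene) shared 50-base stretches with another place, 36 of its 413, so its reads could have been divided with a near-identical copy.

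The libraries held 5218712 to 14580261 fragments over all loci, and the smallest was Sc12 replicate 3. The submitters marked that library and Sc12+Trp replicate 1 as make-up data. TRP5 had 2921 to 8481 fragments in the 12 WT libraries and 0 to 11 in the 12 Sc12 libraries, as the labels imply. Levels are given as CPM, the fragments of a locus relative to the library size after TMM scaling, and a locus was called when its log2 fold change exceeded 1 in size and the adjusted p was below 0.05 over all 6346 loci tested. Levels are shares of each library, so less of an RNA per cell and fewer cells holding it cannot be told apart. The sources used here do not state whether each library had its own culture, so p-values reflect variation among these libraries, which may be technical.

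All 76 loci passed the filter on low FPKM, but this says little, because FPKM is divided by length and a few fragments give a high value for a short locus. Their mean fragments per library ranged from 0.0833 to 1007 with a median of 26.7. A mean of at least 10 fragments was reached by 46 loci, and 25 loci had no fragment in at least 1 library. The median mean was 5.90 fragments over box C/D loci and 76.5 over box H/ACA loci, whose median lengths were 96.5 and 203.5 bases. Per length, the highest mean levels were those of snR11 (315 CPM per kb), snR82 (224), U1 snRNA snR19 (163), snR190 (109) and snR9 (96.8), all but snR190 and snR19 being H/ACA guides of ribosomal RNA. Longer loci had higher levels per kb (Spearman's rho 0.72 across the 76 loci, which share the same libraries). The libraries were made for fragments much longer than most of these RNAs, and the part of insert length in this relation was not tested. Whether poly(A) RNA was selected is not given in the sources used here. Mature RNAs and tailed forms therefore cannot be told apart in these levels, which need not rank the RNAs by abundance in the cell.

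Well-counted snR loci mostly spread more between the Sc12 replicates than between the WT replicates. Over the 46 well-counted loci the median SD of log2 CPM was 0.18 in WT and 0.82 in Sc12, while over 6135 loci of at least 10 fragments it was 0.056 in WT and 0.076 in Sc12. Some abundant loci varied little in Sc12, among them the H/ACA RNAs snR86, snR84 and snR82 with coefficients of variation of 10.6%, 12.5% and 15.5%. Summed over all 76 loci, WT held 537, 529 and 539 CPM. Sc12 held 636, 1288 and 1792 CPM, so that replicate 1 lay near the WT libraries and replicates 2 and 3 far above them. The means were 535 ± 5.3 (SD, n = 3) in WT and 1238 ± 579 in Sc12. The other groups with tryptophan or isobutanol had means between 507 and 799 CPM, the highest being Sc12+IB at 799 ± 101. Scaling by library totals instead of TMM gave 516 ± 103 for Sc12+IB (TMM factors 0.588 to 0.687, against 0.970 to 1.144 elsewhere).

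**Figure D1:**
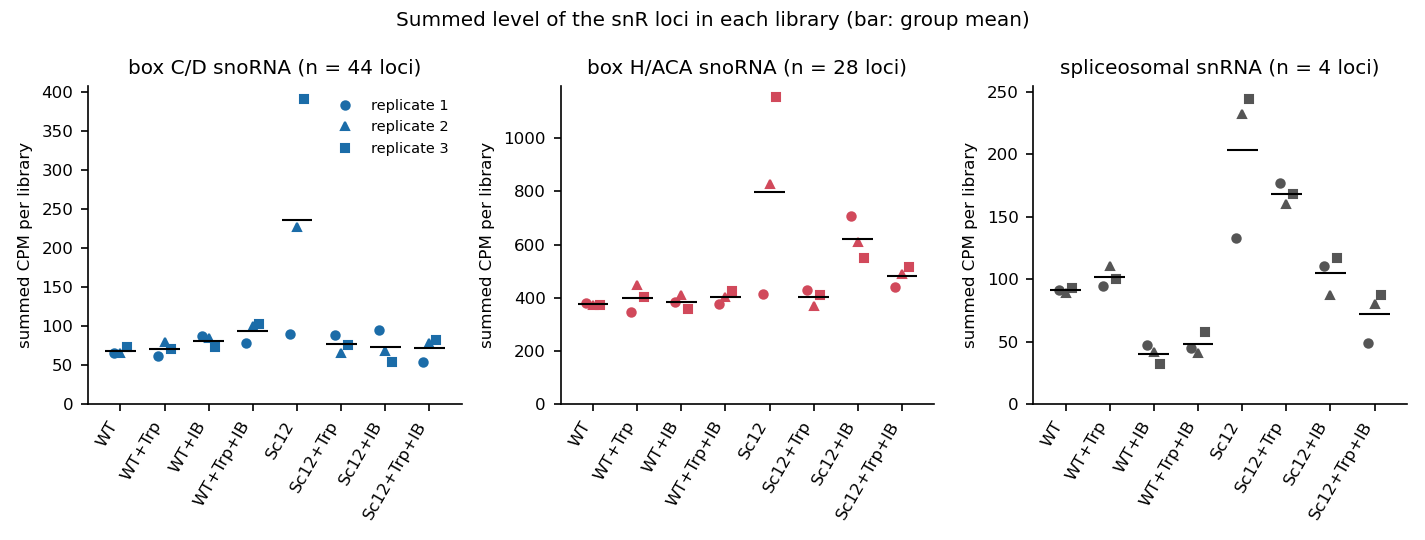
Summed CPM per library of the 44 box C/D, 28 box H/ACA and 4 spliceosomal loci (y axis) in the 8 groups (x axis), with symbols for replicates 1 to 3 and a bar for the group mean. Replicates 2 and 3 of Sc12 stand above all other libraries in each panel, and spliceosomal RNA was lowest in WT+IB and WT+Trp+IB.

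The comparison of Sc12 with WT without additions gives the difference between the strains. With 1 mutant strain, the loss of TRP5 cannot be told apart from other traits of that strain. Of the 76 loci, 29 were called higher in Sc12 and 1 lower, against 3.31% of all tested loci called in either direction, 1.78% called higher and 1.53% called lower. The median log2 fold change was 0.61 over the 76 loci and -0.01 over all loci. These 29 were among 113 higher calls in the whole table. Their median log2 ratio to the WT mean was 0.61 in Sc12 replicate 1, 2.15 in replicate 2 and 2.81 in replicate 3. These 29 were called from the same libraries, so the ratios only describe how the calls were spread over them. Of all 76 loci, 38 exceeded every WT library in Sc12 replicate 1, 48 in replicate 2 and 44 in replicate 3, against 41.9%, 41.7% and 39.8% of all tested loci. Leaving out any one library left 26 to 33 called loci, and leaving out both make-up libraries left 26. limma on log2(FPKM + 1) called 12, all higher.

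snR190, a box C/D RNA known to take part in maturation of the large ribosomal subunit, had 3.46, 4.57 and 4.93 CPM in WT and 18.4, 98.4 and 212 CPM in Sc12. All Sc12 libraries lay above WT, with a log2 fold change of 4.64 ± 0.68 (SE, adjusted p = 1.15e-05, edgeR quasi-likelihood test). snR34, an H/ACA guide of the large-subunit RNA, went from 1.56, 2.35 and 2.12 CPM to 6.00, 32.4 and 56.6 CPM (3.93 ± 0.67). snR35, a predicted guide of the small-subunit RNA, went from 2.78, 3.36 and 4.32 CPM to 11.6, 44.9 and 53.1 CPM (3.36 ± 0.40). These 3 had no overlap between the strains. snR49 and snR80, both H/ACA guides with sites in both subunits, rose by 3.67 ± 0.70 and 3.42 ± 0.58 on the log2 scale, but from means below 10 fragments per library.

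RNAs needed for cutting the ribosomal precursor were among the higher calls. snR30, an essential H/ACA RNA, had 12.7, 12.2 and 13.2 CPM in WT and 24.0, 65.8 and 110 CPM in Sc12 (log2 fold change 2.35). snR128 (U14) had 0.203, 0.538 and 0.411 CPM in WT and 0.794, 1.55 and 4.06 CPM in Sc12 (2.25), a level that rests on a mean of 7.88 fragments. U3 snR17b had 5.15, 5.65 and 6.16 CPM in WT and 13.9, 26.8 and 40.6 CPM in Sc12 (2.23). Both guides of 18S acetylation, snR4 and snR45, rose by 2.35 and 2.5 on the log2 scale. snR37, which has a structural part in early large-subunit assembly, rose by 2.98.

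The single fall was that of snR57, an 88-base box C/D guide of the small-subunit RNA. It had 2.92, 4.24 and 4.04 CPM in WT and 1.59, 0.581 and 1.52 CPM in Sc12, without overlap (log2 fold change -1.63 ± 0.32, adjusted p = 0.000382). Sc12 replicate 1, which was near WT for the sum of the loci, was as low as replicate 3 for snR57.

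**Figure D2:**
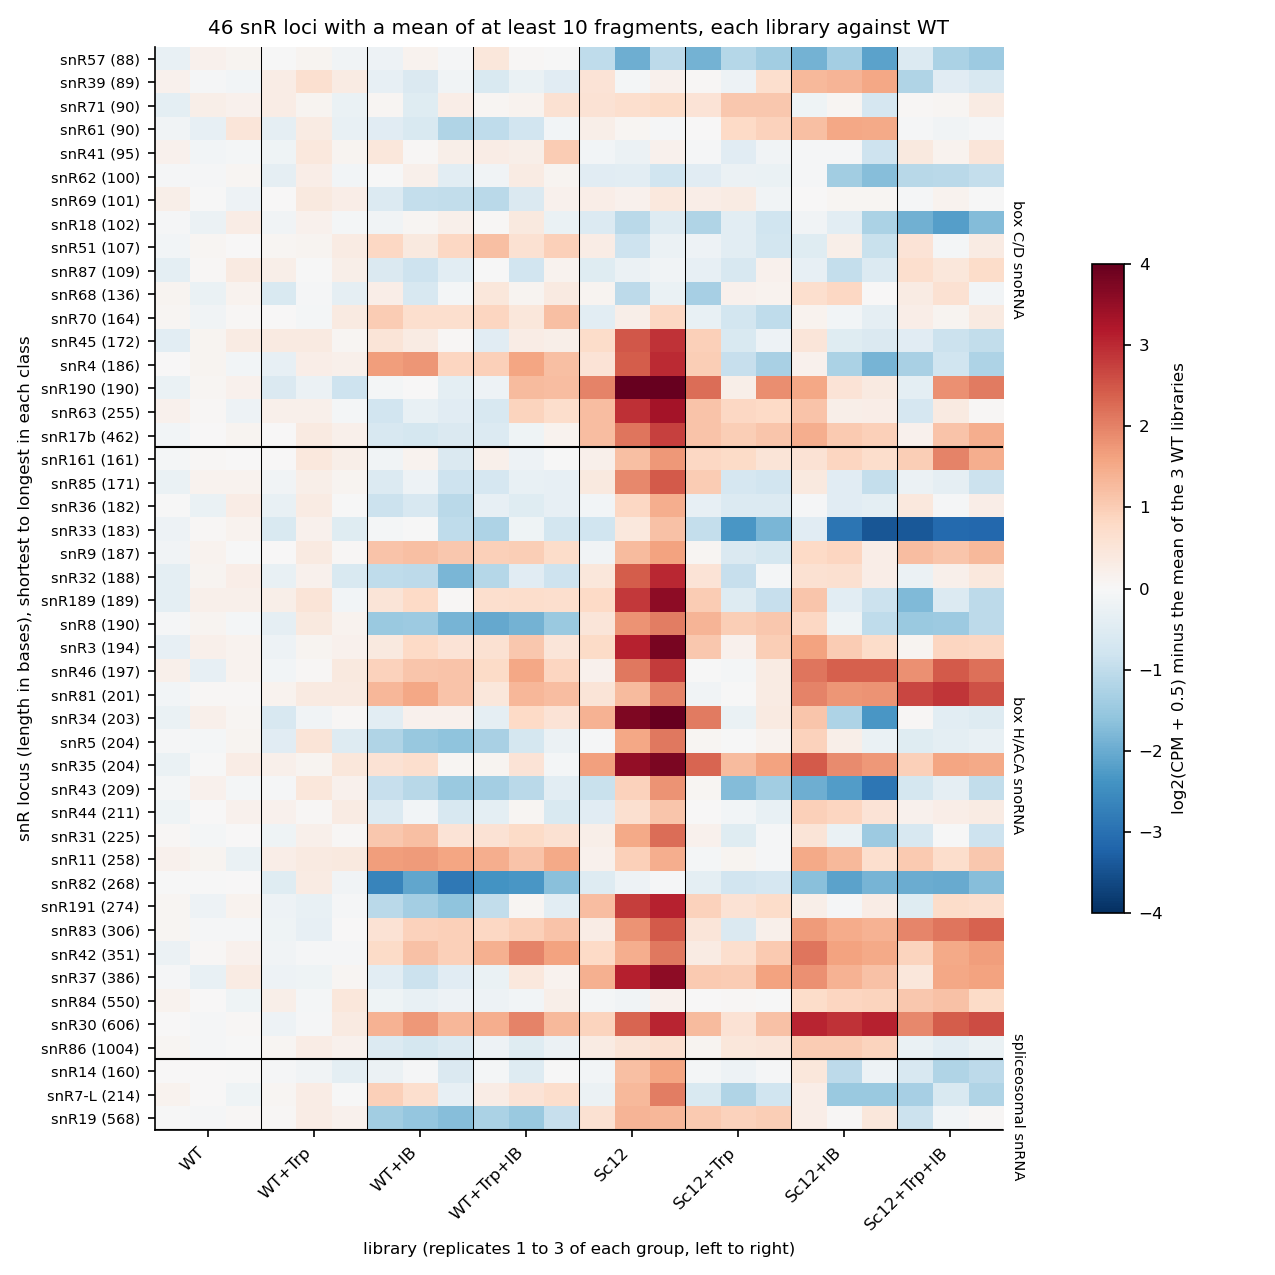
Level of the 46 well-counted loci in each of 24 libraries as log2(CPM + 0.5) minus the mean of the 3 WT libraries (colour, ending at 4 in each direction), with loci grouped by class and ordered by length. Sc12 replicates 2 and 3 are high for most of the longer loci and near or below WT for most of the short box C/D loci, and snR57 is low in all 12 Sc12 libraries.

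The higher calls in Sc12 all lay among the longer loci. Among the 34 loci of 78 to 109 bases, all box C/D, 0 were called higher and 1 lower, with a median log2 fold change of 0.00. Only 10 of these 34 reached a mean of 10 fragments, and their median was -0.16 with a highest value of 0.90. Among the 42 loci of 112 to 1004 bases 29 were called higher, with a median of 1.59. Within that length range 6 of 10 box C/D loci and 20 of 28 box H/ACA loci were called higher, with medians of 2.24 and 1.66. The boundary at 110 bases was set with these values known, so no test of it is given. In the well-counted loci of more than 110 bases, the median ratio to WT was 0.36 in Sc12 replicate 1, 1.52 in replicate 2 and 2.11 in replicate 3 (log2). For the 10 shorter ones it was 0.07, -0.23 and -0.10.

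**Figure D3:**
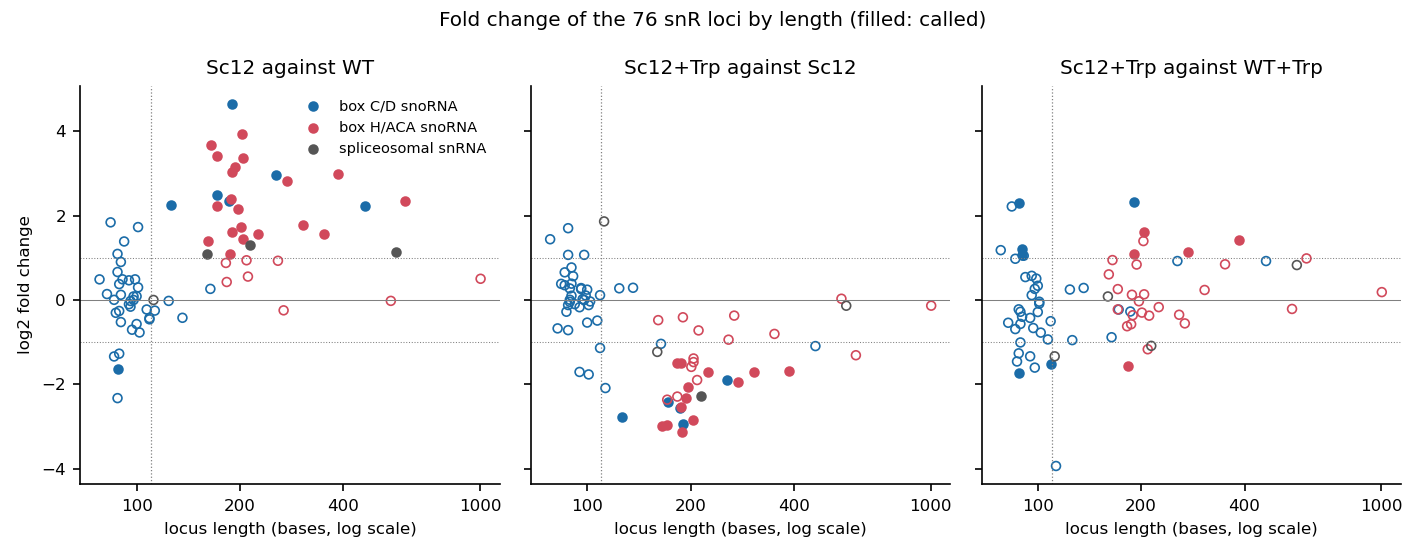
Log2 fold change (y axis) against locus length in bases (x axis, log scale) for the 76 loci in 3 comparisons, coloured by class and filled where called, with a dotted vertical line at 110 bases. No locus shorter than 110 bases was called higher in Sc12 or lower in Sc12+Trp against Sc12, and the longer loci spread upward and downward respectively.

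Other stable non-coding RNAs, taken from a fixed list, were also high in Sc12. Of the 4 measured (NME1, RPR1, SCR1 and LSR1) 3 were called higher in Sc12 than in WT, where 1.78% of all tested loci were. LSR1, the U2 spliceosomal RNA, ranged from 157 to 191 CPM in WT and from 1380 to 1811 CPM in Sc12. SCR1, the RNA of the signal recognition particle, ranged from 42.8 to 51.6 CPM in WT and from 158 to 782 CPM in Sc12. The protein-coding genes of snoRNA particles mostly did not pass the test. Of the 4 core box C/D proteins, the 4 core box H/ACA proteins, 10 assembly factors, 19 measured exosome and TRAMP subunits and the 8 host genes of intronic snoRNAs, 0 were called in either direction, while 1 of 9 genes of snoRNA transcription end and processing was called higher (RNT1, the nuclease that opens many snoRNA precursors, 1.09). With 3.31% of all tested loci called in either direction, these gene counts were near the background. NME1, the RNA of RNase MRP, also rose (1.64), and RPR1, the RNA of RNase P, was at 0.88. The part of these RNAs in the snR result was not tested.

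Tryptophan feeding of Sc12 was accompanied by lower snR levels. Of the 76 loci 19 were called lower and 0 higher in Sc12+Trp against Sc12, where 0.378% of all loci were called, 22 lower (0.347%) and 2 higher (0.0315%). The median was -0.60 over the 76 loci and 0.02 over all loci. So 19 of the 22 loci called lower in the whole table were snR loci. The summed levels were 696, 594 and 654 CPM in Sc12+Trp, so that Sc12 replicate 1 with 636 CPM lay within the range of Sc12+Trp. The largest falls were those of snR189 (-3.12 ± 0.60), snR49 (-2.99 ± 0.68), snR80 (-2.95 ± 0.59), snR190 (-2.93 ± 0.61) and snR34 (-2.85 ± 0.64), with adjusted p-values from 0.0286 to 0.0478. snR190 had 21.9, 5.11 and 16.7 CPM in Sc12+Trp, so that Sc12 replicate 1 with 18.4 CPM lay inside that range. Of the 19 loci, chosen by this same comparison, 7 lay in every Sc12+Trp library below every Sc12 library. This held for 13 of all 76 loci and for 9.45% of all tested loci.

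This count hung on single libraries. It was 0 without Sc12 replicate 2, Sc12 replicate 3, Sc12+Trp replicate 2 or Sc12+Trp replicate 3, 32 without Sc12 replicate 1 and 25 without Sc12+Trp replicate 1. It was 9 without both make-up libraries, and limma on log2(FPKM + 1) called 0, with 23 loci at an unadjusted p below 0.05. By length, 0 of 34 loci of up to 109 bases and 19 of 42 longer ones were called lower. None of the 4 other stable non-coding RNAs was called in this comparison, with SCR1 at -1.42, NME1 at -1.09, RPR1 at 0.04 and LSR1 at 0.36.

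Tryptophan in WT moved no snR locus past the test. In WT+Trp against WT 0 of 76 loci were called (0.0158% of all loci), 0 had an unadjusted p below 0.05, and DESeq2 and limma also called 0. In WT+Trp+IB against WT+IB 0 were called (0% of all loci) by edgeR, DESeq2 and limma, and 6 had an unadjusted p below 0.05. The median log2 fold changes over the 76 loci were 0.08 and 0.20.

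With tryptophan in both strains fewer loci were called, and whether the strain difference itself changed with tryptophan was not tested. In Sc12+Trp against WT+Trp 8 loci were called higher and 3 lower, against 3.21% of all loci called, 1.56% higher and 1.65% lower. snR190 (2.32 ± 0.74), snR35 (1.62 ± 0.40) and snR37 (1.42 ± 0.39) were again higher, as was snR71, a short box C/D guide (1.21 ± 0.31). snR56 was called higher on 1, 6 and 6 fragments against 3, 0 and 0. snR57 (-1.72 ± 0.31), snR33 (-1.56 ± 0.55) and snR76 (-1.51 ± 0.53) were lower. The total of 11 calls fell to 7 without WT+Trp replicate 3 or without Sc12+Trp replicate 3. Higher calls fell to 4 without WT+Trp replicate 3 and to 5 without WT+Trp replicate 1, Sc12+Trp replicate 1 or Sc12+Trp replicate 3, lower calls rose to 5 without Sc12+Trp replicate 1 and were 2 without WT+Trp replicate 2, Sc12+Trp replicate 2 or Sc12+Trp replicate 3, and limma called 0, with 12 at an unadjusted p below 0.05. snR190 was not called without Sc12+Trp replicate 1 (1.94) or WT+Trp replicate 3 (2.2), snR56 not without 4 single libraries, snR71 not without WT+Trp replicate 3 (0.99), and the calls of snR33 and snR76 were each lost without several single libraries.

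Across all media, 3 of the 76 loci had all 12 Sc12 libraries on one side of all 12 WT libraries, against 3.92% of all tested loci. snR57 ranged from 0.452 to 2.34 CPM (median 1.12) in Sc12 and from 2.92 to 5.25 CPM (median 3.73) in WT. snR37 ranged from 11.0 to 100 CPM (median 23.1) in Sc12 and from 4.16 to 10.8 CPM (median 6.86) in WT. snR35 ranged from 7.20 to 53.1 CPM (median 12.1) in Sc12 and from 2.78 to 5.74 CPM (median 3.87) in WT. The share of separated snR loci, 3 of 76, was close to the background, so separation by strain was not a feature of the loci as a group.

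**Figure D4:**
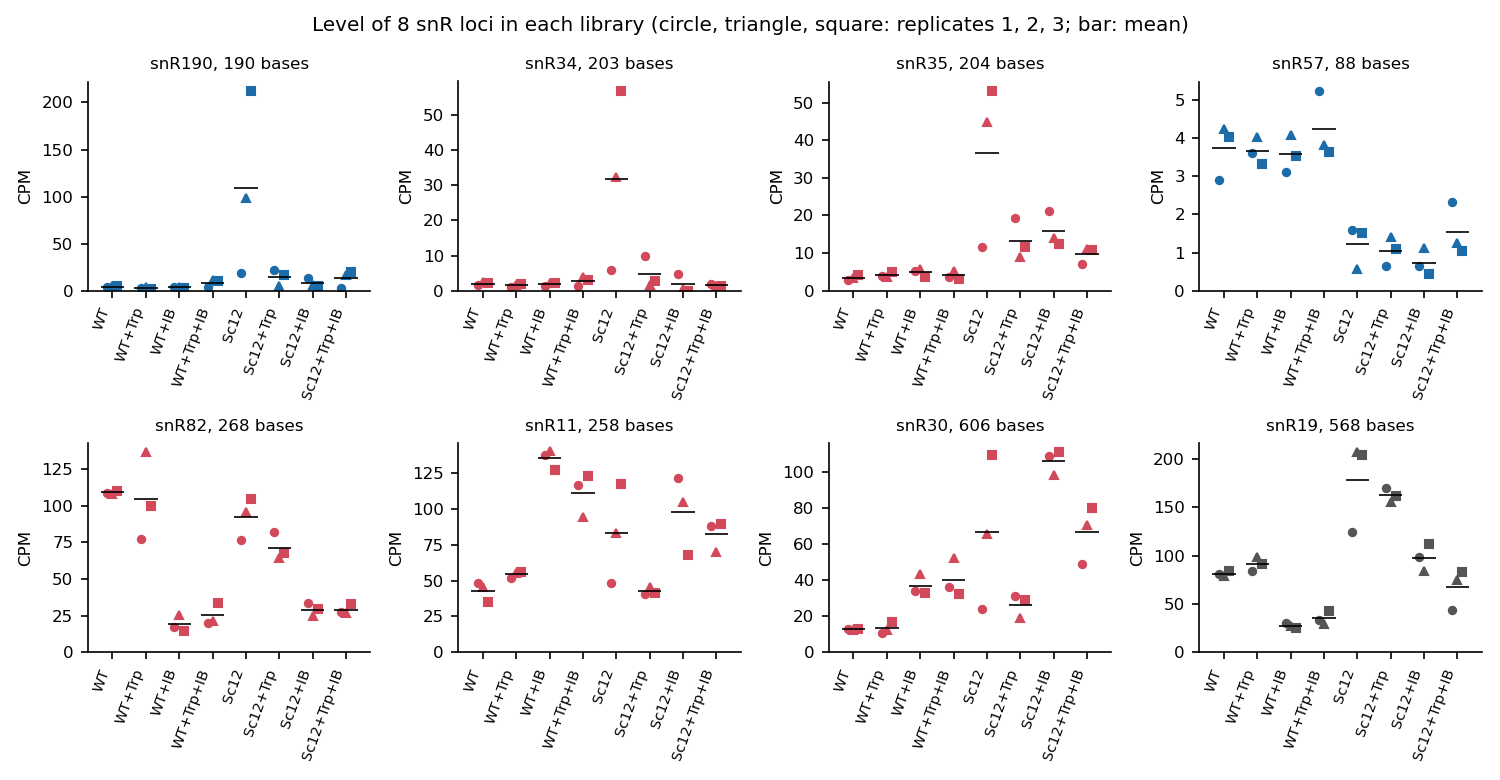
CPM (y axis) of 8 loci in each library by group (x axis), with a symbol for each replicate and a bar for the mean. snR57 is lower in every Sc12 library than in any WT library, snR82 is lower in every library with isobutanol than in any without, and snR190, snR34 and snR35 peak in Sc12 replicates 2 and 3.

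Isobutanol moved snR loci of WT in both directions. In WT+IB against WT 10 loci were called higher and 11 lower, against 20.7% of all loci called, 11.8% higher and 8.89% lower, and the median over the 76 loci was -0.05. The counts by class were 7 higher and 7 lower of 28 H/ACA loci and 3 and 3 of 44 C/D loci. The number called lower was 7 without WT replicate 3 and 6 without WT+IB replicate 3, while the total stayed between 17 and 21. In WT+Trp+IB against WT+Trp 9 were called higher and 5 lower (19.7% of all loci, 11.2% higher and 8.56% lower), with 5 higher without WT+Trp replicate 1, 6 higher without WT+Trp+IB replicate 2 and 8 lower without WT+Trp+IB replicate 3.

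snR82, an H/ACA guide of the large-subunit RNA, had the largest fall and the lowest adjusted p. It had 109, 108 and 110 CPM in WT and 17.1, 25.4 and 14.7 CPM in WT+IB (log2 fold change -2.51 ± 0.21, adjusted p = 3.79e-10). In WT+Trp it had 77.3, 137 and 99.6 CPM and in WT+Trp+IB 20.2, 21.5 and 33.7 CPM (-2.06 ± 0.21). It fell in Sc12 as well, from 76.6, 95.5 and 105 CPM to 33.5, 24.5 and 29.4 CPM (-1.66), and from 82.2, 64.3 and 67.6 CPM to 27.2, 26.8 and 33.0 CPM with tryptophan (-1.29). It was the only snR locus with all 12 isobutanol libraries on one side of all 12 others, a separation seen for 14.7% of all tested loci. The ranges were 14.7 to 33.7 CPM with isobutanol and 64.3 to 137 CPM without.

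Other falls in WT+IB were those of snR191 (-2.14 ± 0.62), snR8 (-1.77 ± 0.41) and snR32 (-1.59 ± 0.59), all H/ACA guides of the large-subunit RNA. snR8 went from 7.59, 8.47 and 7.33 CPM to 2.46, 2.49 and 1.77 CPM. The call of snR32 was lost without WT replicate 3 (-1.42) or WT+IB replicate 3 (-1.33). snR65 was called lower on 1, 0 and 0 fragments against 3, 2 and 4, and this call was lost without WT replicate 3, WT+IB replicate 2 or WT+IB replicate 3. In WT+Trp+IB the falls were snR8 (-2.12 ± 0.43), snR82, snR39 (-1.39 ± 0.39), snR19 (-1.38 ± 0.19) and snR43 (-1.17 ± 0.47), the last lost without any of 4 single libraries.

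In WT snR11, the snR locus with the highest level per kb and an H/ACA guide of the large-subunit RNA, showed the opposite change to snR82. It had 48.0, 45.7 and 35.1 CPM in WT and 138, 141 and 127 CPM in WT+IB (1.65 ± 0.21, adjusted p = 3.37e-07). In Sc12+IB against Sc12 snR11 was at 0.26 and not called, and its interaction of strain and isobutanol without tryptophan was called (-1.39). With tryptophan it had 40.7, 45.9 and 41.1 CPM in Sc12+Trp and 87.8, 69.6 and 89.5 CPM in Sc12+Trp+IB. snR30 went from 12.7, 12.2 and 13.2 CPM to 34.2, 43.2 and 33.0 CPM (1.53 ± 0.34), and in WT+Trp+IB it rose by 1.59 ± 0.34. snR81, which guides both large-subunit RNA and the U2 spliceosomal RNA, went from 0.678, 0.807 and 0.822 CPM to 2.68, 3.24 and 2.29 CPM (1.83 ± 0.34). snR24 (1.80 ± 0.47) and snR4 (1.56 ± 0.50) completed the 5 largest rises. In WT+Trp+IB the 5 largest were snR42 (1.83 ± 0.27), snR30, snR24 (1.41 ± 0.47), snR4 (1.26 ± 0.51) and snR83 (1.20 ± 0.34), of which snR24 lost its call without WT+Trp+IB replicate 2 (0.82) and snR4 without any of 3 single libraries.

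In Sc12 isobutanol was accompanied mostly by falls. In Sc12+IB against Sc12 27 loci were called lower and 6 higher, against 27.8% of all loci called, 17.2% higher and 10.6% lower. By class, 17 of 28 H/ACA loci and 8 of 44 C/D loci were called lower. With library totals the split was 41 lower and 1 higher, and the median of all loci was then -0.84 in place of -0.02. The largest falls were snR34 (-4.0 ± 0.75), snR190 (-3.64 ± 0.66), snR43 (-3.54 ± 0.60) and snR4 (-3.11 ± 0.59), 3 of which were among the higher calls of Sc12 against WT. These comparisons share the Sc12 libraries. snR67, at -3.08 ± 1.29, rested on 1, 0 and 0 fragments in Sc12+IB and lost its call without several single libraries. snR190 in Sc12+IB had 13.4, 6.5 and 5.58 CPM, against 18.4, 98.4 and 212 CPM in Sc12. snR34 had 4.85, 0.565 and 0 CPM, against 6.00, 32.4 and 56.6 CPM in Sc12. The falls were thus largest against Sc12 replicates 2 and 3, and some lower calls overlapped between the groups. snR37 (-1.46), for example, had 22.1, 71.8 and 100 CPM in Sc12 and 29.3, 21.6 and 18.4 CPM in Sc12+IB.

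The 6 rises in Sc12+IB included 5 short box C/D RNAs: snR59, snR55, snR66, snR61 and snR39. snR55 had 17, 7 and 6 fragments in Sc12+IB and 3, 3 and 0 in Sc12 (2.62 ± 0.59), and its call held with library totals (1.81). snR61 went from 1.15, 0.968 and 0.845 CPM to 2.68, 3.53 and 3.47 CPM (1.66 ± 0.39), and snR39 from 1.5, 0.775 and 1.01 CPM to 2.81, 2.97 and 3.47 CPM (1.45 ± 0.32). With library totals snR61 was at 0.84 and snR39 at 0.63, not called. snR66 (2.26 ± 0.74) and snR59 (3.45 ± 1.29) had means of 4.04 and 1.46 fragments and also lost their calls with library totals. Without Sc12+IB replicate 1 there were 3 higher calls and without Sc12 replicate 2 there were 4, and snR59 stood at 1.72 and snR66 at 1.91 in the former, neither called. The call of snR59 was also lost without Sc12 replicate 2 (2.91) and that of snR66 without Sc12 replicate 1 (1.55).

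**Figure D5:**
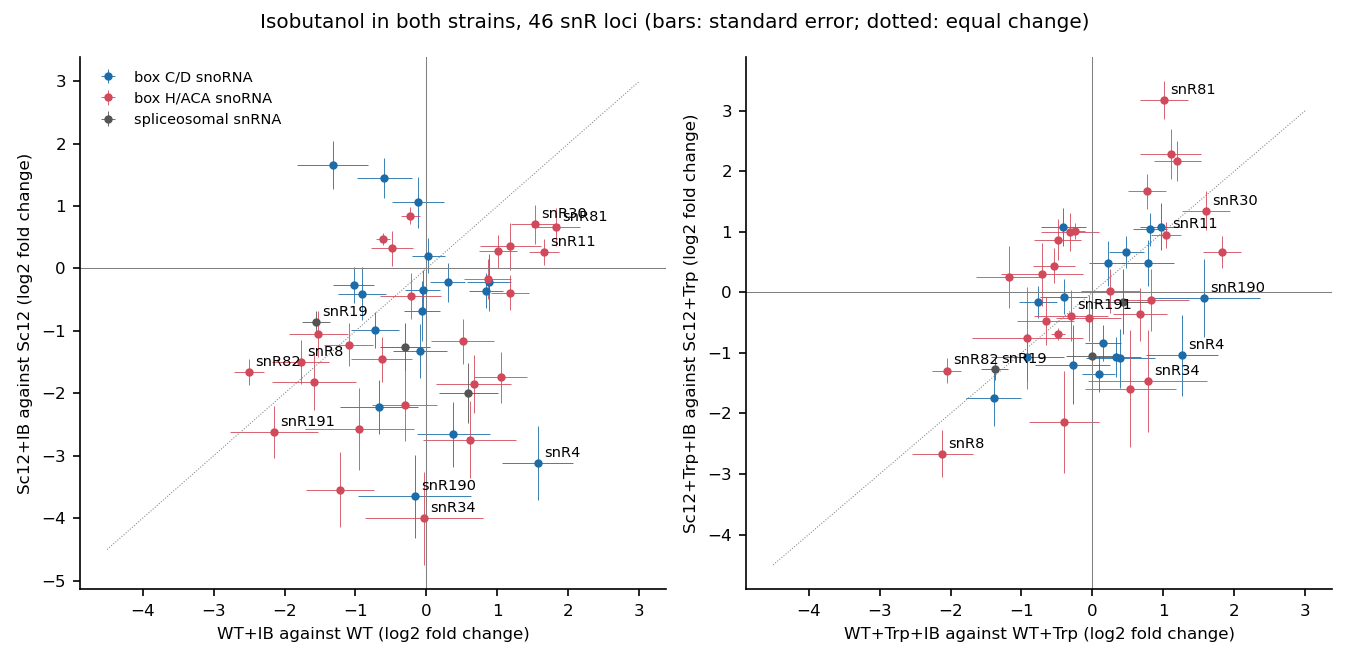
Log2 fold change with isobutanol in WT (x axes) against that in Sc12 (y axes) for the 46 well-counted loci, without tryptophan (left) and with it (right), with standard errors as bars and the line of equal change dotted. snR82, snR8 and snR19 lie in the lower left in both panels, and snR190, snR34 and snR4 lie far below the line without tryptophan.

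With tryptophan the isobutanol response of Sc12 was balanced, with 14 loci called higher and 10 lower in Sc12+Trp+IB against Sc12+Trp (17.9% of all loci, 9.93% higher and 8.02% lower). snR81 rose most among well-counted loci, from 0.638, 0.741 and 1.10 CPM to 7.57, 8.66 and 6.96 CPM (3.17 ± 0.31, adjusted p = 6.79e-09). snR46 (2.29 ± 0.42) and snR83 (2.17 ± 0.33), H/ACA guides of the large and the small subunit, also rose. snR48 had 0 fragments in all Sc12+Trp libraries and 5, 1 and 5 in Sc12+Trp+IB, and snR64 had 0, 1 and 2 against 5, 8 and 3. The largest falls were snR8 (-2.67 ± 0.39), snR52 (-2.54 ± 0.99), snR33 (-2.14 ± 0.85), snR39 (-1.75 ± 0.46) and snR18 (-1.35 ± 0.30). snR8 went from 20.9, 15.9 and 17.1 CPM to 2.43, 2.5 and 3.48 CPM. snR52 had 0, 1 and 0 fragments against 4, 3 and 1, and it and snR33 lost their calls without several single libraries, Sc12+Trp replicate 1 among them, while snR64 lost its call without Sc12+Trp+IB replicate 2.

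Under isobutanol the strains differed in both directions. In Sc12+IB against WT+IB 21 loci were called higher and 8 lower (27.2% of all loci, 16.1% higher and 11.1% lower). With library totals 12 were called higher and 21 lower, and the median of all loci was then -0.67 in place of -0.02. snR61 (3.10 ± 0.44), snR39 (2.42 ± 0.35) and snR191 (2.35 ± 0.67) were higher and stayed so with library totals (2.45, 1.77 and 1.70), while snR65 (3.73 ± 0.88) and snR59 (2.43 ± 1.04) had few fragments and the call of snR59 was lost with library totals. Lower were snR78 (-2.72 ± 0.99), snR4 (-2.33 ± 0.60), snR57 (-2.25 ± 0.39), snR24 (-2.23 ± 0.61) and snR33 (-1.46 ± 0.59). The 8 lower calls became 4 without Sc12+IB replicate 3, snR59 stood at 0.70 without Sc12+IB replicate 1, and snR78 and snR33 lost their calls without Sc12+IB replicate 3 (-2.29 and -1.0) and without other single libraries.

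With both isobutanol and tryptophan, 12 loci were called higher and 11 lower in Sc12+Trp+IB against WT+Trp+IB (24% of all loci, 11.8% higher and 12.2% lower). snR161 (1.92 ± 0.36) and snR81 (1.86 ± 0.27) were the well-counted loci among the 5 largest rises, beside snR64 (2.23 ± 0.82), snR13 (1.59 ± 0.53) and snR47 (1.34 ± 0.47). snR33, an H/ACA guide of the large-subunit RNA, was lowest relative to WT, with 0.467, 0.673 and 0.659 CPM against 3.82, 8.66 and 5.61 CPM (-3.30 ± 0.76, adjusted p = 0.000463). snR4 (-2.57 ± 0.60), snR189 (-2.49 ± 0.87), snR24 (-2.41 ± 0.58) and snR75 (-2.23 ± 0.58) were also lower. snR64, snR13 and snR47 lost their calls without Sc12+Trp+IB replicate 2 (1.81, 1.01 and 1.18), snR13 and snR47 without WT+Trp+IB replicate 3 (1.18 and 0.88), snR64 without WT+Trp+IB replicate 2 (1.74), and snR189 lost its call without Sc12+Trp+IB replicate 1 (-2.0). Without Sc12+Trp+IB replicate 2 there were 8 higher calls.

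Tryptophan given to Sc12 under isobutanol was accompanied by 7 higher and 7 lower calls in Sc12+Trp+IB against Sc12+IB (24% of all loci, 9.39% higher and 14.6% lower). With library totals the split was 18 higher and 2 lower, and the median of all loci was then 0.77 in place of 0.02. snR39 fell most, from 2.81, 2.97 and 3.47 CPM to 0.0935, 0.481 and 0.376 CPM (-3.24 ± 0.40, adjusted p = 1.51e-07), and it stayed lower with library totals (-2.49). snR61 (-1.96 ± 0.39) also stayed lower (-1.21), while snR33 (-2.24 ± 0.89), snR18 (-1.59 ± 0.31) and snR8 (-1.57 ± 0.42) lost their calls with library totals. The largest rises were snR78 (2.87 ± 0.98), snR64 (2.31 ± 0.93), snR13 (2.23 ± 0.65), snR43 (1.90 ± 0.66) and snR87 (1.59 ± 0.36), a box C/D guide of the small-subunit RNA that went from 1.15, 0.565 and 0.905 CPM to 2.80, 2.31 and 2.92 CPM. Without Sc12+IB replicate 1 there were 9 calls, with snR33 at -0.14, snR8 at -0.90, snR64 at 1.71 and snR78 at 2.32 no longer called, and snR33 and snR64 lost their calls without other single libraries too. Without Sc12+IB replicate 3 there were 5 higher and 11 lower calls, and snR43 at 1.63 was no longer called.

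The difference between the strains in their isobutanol response was tested as an interaction in the same fit. Without tryptophan 5 loci had a higher and 18 a lower response in Sc12 than in WT, where 25.3% of all loci were called, 16% higher and 9.27% lower. The median over the 76 loci was -0.71. With library totals the split was 3 and 33, and the median of all loci was then -0.80 in place of -0.04. The difference between the strains in their tryptophan response under isobutanol was called for 4 loci as higher and 8 as lower in Sc12, against 25.5% of all loci, 9.94% higher and 15.5% lower. With library totals that split was 15 and 1, so its direction rested on the scaling.

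RNAs known to be cut from shared transcripts moved apart in some comparisons and alike in others. snR57, snR55 and snR61 lie head to tail within chrXII:794486-795024 on the minus strand. In Sc12+IB against WT+IB snR57 was called lower (-2.25), and snR55 (1.89) and snR61 (3.10) were called higher. The call of snR55 rested on 17, 7 and 6 fragments against 6, 3 and 4. Calls in this comparison also depended on the scaling, with 21 snR loci higher and 8 lower by TMM and 12 and 21 by library totals. In Sc12 against WT only snR57 was called (-1.63), with snR55 at 0.08 and snR61 at 0.12. snR190 and snR128, neighbours on chromosome X that share a precursor, were both called higher in Sc12 (4.64 and 2.25) and lower in Sc12+Trp against Sc12 (-2.93 and -2.76). In WT+IB against WT, however, snR128 was called higher (1.51) and snR190 was at -0.17, not called. Of the snR41, snR70 and snR51 transcript, snR70 (1.04) and snR51 (1.08) were called higher in Sc12+Trp+IB against Sc12+Trp, and snR41 was at 0.67. Of the 16 such RNAs measured, 2 were called higher and 1 lower in Sc12 against WT, against 1.78% and 1.53% of all tested loci.

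The 8 loci inside introns were compared with their host genes, most of which encode ribosomal or translation proteins. Reads from unspliced host RNA over a snoRNA cannot be told apart from the snoRNA, and strand use in counting is not given in the sources used here, although none of the 76 loci overlaps a gene on the opposite strand. snR191 in NOG2, a nucleolar GTPase gene, moved apart from its host in some comparisons. It had 1.76, 1.34 and 1.85 CPM in WT and 4.59, 14.0 and 17.7 CPM in Sc12. With isobutanol WT held 0.507, 0.333 and 0.208 CPM. Its log2 fold change was -2.14 in WT+IB against WT and 2.82 in Sc12 against WT, where NOG2 was at -0.23 and 0.34, neither called. In WT+Trp+IB against WT+Trp snR191 was at -0.30 and NOG2 at 0.33, neither called. In Sc12+Trp+IB against Sc12+Trp snR191 was at -0.39, not called, while NOG2 was called lower (-1.12).

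snR39 in RPL7A differed from its host in direction with tryptophan and isobutanol in WT (-1.39 for snR39 and 1.13 for RPL7A, both called). In Sc12+IB against Sc12 both were called higher (1.45 and 1.06). snR59, its counterpart in RPL7B, had at most 9 fragments in any library. snR24 in ASC1, a box C/D guide, rose together with its host in WT+IB (1.80 and 1.66) and in WT+Trp+IB (1.41 and 1.59), and both were called lower in Sc12+Trp+IB against WT+Trp+IB (-2.41 and -1.84). snR44, the H/ACA RNA in RPS22B, was at -0.48 in WT+IB while RPS22B was called higher (1.91). snR18 (U18) in EFB1 had 2.34, 1.83 and 2.73 CPM in Sc12+Trp+IB and 10.6, 13.3 and 8.27 CPM in WT+Trp+IB, without overlap (-2.21), while EFB1 was at -0.48 and not called. snR38 in TEF4 and snR54 in IMD4 had means of 3.12 and 1.54 fragments and were not called in any of the 12 comparisons.

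The spliceosomal RNAs under the rule differed among themselves. U1 (snR19) had 80.9, 79.2 and 83.8 CPM in WT and 30.6, 27.4 and 24.7 CPM in WT+IB. In Sc12 it had 124, 208 and 204 CPM, and with isobutanol 98.2, 83.8 and 112 CPM. It fell with isobutanol in WT (-1.56) and was called higher in Sc12 with and without isobutanol (1.83 and 1.13). U5 long form (snR7-L), which overlaps the short form at the same locus, had 7.59, 6.99 and 6.10 CPM in WT and 5.82, 17.4 and 30.3 CPM in Sc12 (1.31), and was lower in Sc12+Trp against Sc12 (-2.28). U4 (snR14) had 2.92, 2.89 and 2.81 CPM in WT and 2.65, 7.26 and 9.47 CPM in Sc12 (1.10), with Sc12 replicate 1 below all WT libraries. U6 (snR6) had at most 3 fragments in any library, too few for a difference to be measured.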

How the data were processed

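Total RNA was extracted with the RNeasy kit, and libraries were made with SuperScript III and the TruSeq RNA LT kit for fragments longer than most snR RNAs. Whether poly(A) RNA was selected and whether strand was kept is not given in the sources used here. Per the labels, the submitters' processing notes name bcl2fastq 2.18, Trimmomatic 0.39, FastQC, TopHat2 2.1.1, Bowtie2, Cufflinks 2.2.1 and the sacCer3 build. The authors deposited, for each locus and library, an estimated count of fragments and an FPKM value made with Cufflinks. Their replicates are numbered 0 to 2 in the table and were taken as replicates 1 to 3 of the labels. A deposited table of the authors' own comparisons (pooled values, fold changes and p-values) was not used.

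Estimated counts were rounded (98.8% lay within 0.001 of a whole number). Of 6905 loci with a valid estimate, 6346 had a mean FPKM of at least 1 and were tested in edgeR 4.0.16 with TMM and the quasi-likelihood test, all 24 libraries and 8 group means in 1 fit, with Benjamini-Hochberg adjustment. The standard error is the log2 fold change divided by the root of F. The fit was tested on simulated data in which every locus had the same spread and only loci of at least 10 mean fragments were changed. Well-counted snR loci spread more than the table as a whole. Their median biological coefficient of variation was 24.4%, against 9.12% over all loci of at least 10 fragments. The simulation therefore does not cover them or the sparse loci. Depth was 5218712 to 14580261 fragments per library. Loci of fewer than 10 mean fragments are imprecise. Coordinates were compared with RefSeq R64: 68 of 76 loci were the same, and for the other 8, inside introns, the table gives the span of the host. Alternatives were library totals, no FPKM filter, DESeq2 1.42.0, limma 3.58.1 on log2(FPKM + 1), a replicate block, loci that overlap no other locus, and each library left out. The members and gene lists were chosen with earlier results of these data known. Alternatives added after seeing the data were leaving out both make-up libraries and keeping members with a mean of at least 10 fragments. Named loci are the 5 largest called rises and falls of each comparison, the 5 highest levels per kb, all intronic and spliceosomal loci, snR17b, snR30 and snR128. Exceptions chosen after their values were seen are snR37, snR45 and members of shared transcripts.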

Additional observations from a re-analysis of the deposited data

Results flagged for a closer look

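The response to isobutanol without tryptophan differed between Sc12 and WT by an interaction test for 23 snR loci, of 25.3% of all loci. The response was lower in Sc12 for snR4 (-4.68), snR34 (-3.96), snR128 (-3.50), snR190 (-3.48) and snR189 (-3.35), given as differences of log2 fold changes. It was higher for snR65 (3.64), snR61 (2.98), snR39 (2.04), snR86 (1.08) and snR84 (1.08). snR65 had a mean of 2.21 fragments per library and was not called in Sc12+IB against Sc12 (1.20). snR4 rose with isobutanol in WT (1.56) and fell in Sc12 (-3.11), from 8.64, 32.9 and 48.9 CPM to 6.51, 2.12 and 1.21 CPM. The loci named here with a lower response were all called higher in Sc12 against WT, which shares the widely spread Sc12 libraries. Leaving out 1 library gave 19 to 31 calls in this interaction, with 13 to 25 lower. snR84 and snR86 were not called with library totals (0.31 and 0.32).

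The response to tryptophan under isobutanol differed between the strains for 12 snR loci, of 25.5% of all loci. It was lower in Sc12 for snR59 (-3.60), snR39 (-3.05), snR61 (-2.18), snR63 (-1.96) and snR18 (-1.62). It was higher for snR13 (2.52), snR40 (1.80), snR47 (1.79) and snR81 (1.30). The count was 6 without WT+Trp+IB replicate 3 and 6 without Sc12+IB replicate 1. The calls of snR13, snR40, snR47, snR59, snR61 and snR63 were each lost without at least 1 single library, and snR18 was not called with library totals (-0.89).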

How the results depend on the processing

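limma on log2(FPKM + 1) called fewer snR loci: 12 in WT+IB against WT, 6 in WT+Trp+IB against WT+Trp, 0 in Sc12+Trp against Sc12 (23 at an unadjusted p below 0.05), 8 in Sc12+Trp+IB against Sc12+IB, 12 in Sc12 against WT, 0 in Sc12+Trp against WT+Trp (12 unadjusted), 11 in Sc12+Trp+IB against WT+Trp+IB, 11 for strain and isobutanol and 5 for strain and tryptophan under isobutanol. Library totals gave 36 for strain and isobutanol. Leaving out 1 library gave 0 to 32 calls in Sc12+Trp against Sc12, 9 to 17 in Sc12+Trp+IB against Sc12+IB, 7 to 10 in Sc12+Trp against WT+Trp, 26 to 33 in Sc12 against WT and 6 to 13 for strain and tryptophan under isobutanol. Leaving out both make-up libraries, an alternative chosen after seeing the data, gave 9 in Sc12+Trp against Sc12. The replicate numbers were not treated as pairs, since in 0 of 12 comparisons did every same-numbered pair correlate above 0.1. This rule cannot show that samples were unpaired. In WT+Trp+IB against WT+IB, for example, the correlations were 0.19, 0.60 and -0.04 for replicates 1, 2 and 3. With a replicate block the calls in Sc12+Trp against Sc12 were 13 in place of 19, and those in Sc12 against WT stayed at 30. Of 108 named called values over 48 loci, the call was lost in 49 with limma, 15 with DESeq2, 17 with library totals, 3 with the replicate block and 0 without the filter on low values, and no alternative run reversed a direction. Leaving out 1 library lost the call in 115 of 762 refits. At a median of 26.7 fragments per locus, changes of the 30 sparse loci are poorly measured, and the causes of lost calls were not tested.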
